A study of Mus musculus with 12 samples.

Results

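Transcripts of 53 ribosome biogenesis and nucleolar genes were followed in mouse embryonic fibroblasts with and without huntingtin, the scaffold protein encoded by Htt. The genes were listed by name and role, with earlier results of these data known, and all 53 were found among the 55487 genes counted. They divide by role into RNA polymerase I and its factors (5 genes), abundant and multifunctional nucleolar proteins (6), box C/D snoRNP proteins (4), box H/ACA snoRNP proteins (4), the small subunit processome (14), 40S maturation (8) and 60S assembly (12).

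The cells were primary cultures from E13.5 embryos, and both conditions carried floxed Htt alleles (HTTfl/fl). HTT-deleted cultures received a lentivirus encoding Cre recombinase and GFP, and control cultures received a lentivirus encoding H2B-eGFP. Which exons are floxed and which promoter drives Cre are not stated in the labels. All cells were harvested 7 days after transduction. From each suspension 1 part in 15 was kept for total RNA, and the rest went to a ribosome purification whose pellet gave the ribosome-associated RNA. The 12 libraries form 4 groups of 3: HTT-deleted and control cultures, each as ribosome-associated and as total RNA. Replicates were different primary cultures or separate passages, so the p-values measure the spread between those.

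Ribosomes are built in the nucleolus. RNA polymerase I makes a long precursor of the rRNAs, small nucleolar RNPs direct its methylation (box C/D) and pseudouridylation (box H/ACA), and the small subunit processome cuts and folds its 5′ part. Separate sets of factors then mature the 40S and 60S subunits and see them to the cytoplasm. Growing fibroblasts keep this machinery active, and the transcription factor Myc is a known driver of many of its genes.

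Gene counts ran from 16789356 to 30571501 per library, and the lowest count of any of the 53 genes in any library was 199 (Rrp12), so counting error is small for all of them. All 53 passed the low-count filter in every comparison. Htt itself averaged 12.3 ± 2.81 CPM in total RNA of HTT-deleted cells and 56.4 ± 9.64 CPM in control cells, and 7.28 ± 4.82 CPM against 24.9 ± 6.26 CPM in ribosome-associated RNA (SD, n = 3 each). CPM are gene counts scaled to a common library size with TMM factors. The log2 fold change of Htt was -2.16 (SE 0.24, unadjusted p = 5.5e-05, adjusted p = 0.812 in edgeR's quasi-likelihood test) in total and -1.78 (SE 0.47, unadjusted p = 0.0083, adjusted p = 1.0) in ribosome-associated RNA. The groups do not overlap for Htt in either fraction, but in these fits it too missed the threshold adjusted over all genes. In total RNA DESeq2 called it (-2.16, adjusted p = 7.0e-12). So did the quasi-likelihood test on pairs 2 and 3 with the replicate number as a block (-2.35, adjusted p = 5.5e-06). In ribosome-associated RNA neither did (adjusted p = 0.212 and 0.0869). With the block and all 3 pairs Htt missed in both fractions (adjusted p = 0.902 and 0.537). Fibroblast markers were abundant: the 12 of them summed to 28366 to 52176 CPM in total RNA of HTT-deleted cells and 41639 to 55023 CPM in control cells. Of the 8 endothelial markers, only Kdr, Tek and Emcn passed the low-count filter over all 12 libraries. Their sum was 11.6 to 20.9 CPM in total RNA of HTT-deleted cells and 11.9 to 20.0 CPM in control cells. Tek (5.75 to 18.4 CPM in total RNA of HTT-deleted cells) and Kdr (2.80 to 5.69 CPM) made up most of that sum. Among those left out of it, Pecam1 and Cdh5 were at most 0.113 and 0.165 CPM there, and Tie1 and Cldn5 were at 0. These values for single endothelial markers were scaled to the library total without TMM factors, unlike the sums. Macrophage markers were present and were higher with the deletion in all 3 pairs of both fractions: the 18 of them summed to 1842 to 7603 CPM in total RNA of HTT-deleted cells and 807 to 3306 CPM in control cells, and to 2845 to 8607 CPM and 1221 to 5002 CPM in ribosome-associated RNA of HTT-deleted and control cells. All 18 had fold changes above 0 in both fractions. The fits without the replicate number as a block called 0 of them. With the block, 10 of 18 were called higher in ribosome-associated RNA, against 1.69% of all genes. In total RNA 2.37% of all genes had an unadjusted p under 0.05 with the block. So did 17 of the 18 markers, of which 0 were called. Their part in the results on biogenesis genes was not tested. Proliferation markers summed to 537 ± 27.2 CPM in total RNA of HTT-deleted cells and 524 ± 21.2 CPM in control cells (SD, n = 3 each). The library of total RNA from HTT-deleted replicate 1 stood apart. Its log2 difference from control replicate 1 had an SD of 0.870 over all genes, against 0.429 and 0.340 in the other pairs, and it fell with coding length (Spearman rho = -0.577 over 13544 genes, which share a library pair). Values without that library are given beside the members it moved most. HTT-deleted culture 1 also differed otherwise. Htt was at 12.8 CPM in its ribosome-associated RNA, against 5.04 and 3.98 CPM in cultures 2 and 3. In total RNA Htt was at 15.5, 10.6 and 10.7 CPM in HTT-deleted cultures 1, 2 and 3. Culture 1 held the highest macrophage sums of HTT-deleted cells, 7603 and 8607 CPM, and of control cells, 3306 and 5002 CPM. The part of these differences in the results on biogenesis genes was not tested.

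Together the 53 genes took 0.396 ± 0.0529% of gene counts in total RNA of HTT-deleted cells and 0.378 ± 0.0311% in control cells (SD, n = 3 each). In ribosome-associated RNA the shares were 0.408 ± 0.0263% in HTT-deleted cells and 0.408 ± 0.0329% in control cells. The groups overlapped in both fractions. In these bulk samples fewer cells of a type and less RNA per cell cannot be told apart. Npm1, the nucleolar chaperone nucleophosmin, and Ncl, the abundant RNA-binding protein nucleolin, together made up 38.4 ± 1.55% of the 53 genes' counts in ribosome-associated RNA of HTT-deleted cells and 33.3 ± 3.5% in their total RNA. In control cells these shares were 39.2 ± 1.85% in ribosome-associated and 32.7 ± 0.254% in total RNA.

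Levels per length spanned a wide range. Per kilobase of coding length, Npm1 was highest, at 874 ± 289 CPM in total RNA of HTT-deleted cells and 784 ± 49.0 CPM in control cells. Ncl followed at 248 ± 30.3 and 250 ± 15.0 CPM per coding kilobase in HTT-deleted and control cells, then Rrp1, a 60S assembly factor, at 127 ± 23.8 and 121 ± 5.85. At the low end were Heatr1 (5.39 CPM per coding kilobase in HTT-deleted and 5.82 in control cells), Polr1b (5.25 and 5.59) and Rrp12 (5.73 and 5.23). Heatr1 is a large processome protein, Polr1b the second-largest RNA polymerase I subunit and Rrp12 a factor of 40S maturation and export.

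Because Myc binds with Max at the E-box CACGTG, promoters were searched for it. Of the 53 genes, 48 matched an entry in a RefSeq promoter table (GRCm38.p6, 250 bases before to 50 after the start). Genes were counted where any listed promoter held the letters. The palindrome CACGTG, which reads alike on both strands, was found at 12 of the 48 genes (25.0%). It was found at 11.5% of the 11137 genes tested here that have an entry. Of all 32851 promoters in the table, counted singly and so by an unlike measure, 7.15% held it. The ETS core CCGGAA, searched on both strands, was at 22 of the 48 genes (45.8%) and at 29.8% of tested genes. It was in 14.9% of all promoters counted singly. The GC box GGGCGG was at 66.7% of the 48 genes and 67.6% of tested genes, CCAAT at 41.7% and 42.5%, and TATAAA at 4.17% and 9.19%. A match is a description of these letters, not a binding site. At 3 of the 12 genes with CACGTG, an E-box lies upstream of the annotated start. The 120 bases around it that end before the start are shown 5′ to 3′ with the E-box in capitals. They belong to Imp4, a processome protein (chr1:34439651-34439770, plus strand), Nop2, an rRNA methyltransferase of 60S assembly (chr6:125131763-125131882, plus strand), and Rrn3, the initiation factor that recruits RNA polymerase I (chr16:13780579-13780698, plus strand), all in GRCm38.p6.
Imp4: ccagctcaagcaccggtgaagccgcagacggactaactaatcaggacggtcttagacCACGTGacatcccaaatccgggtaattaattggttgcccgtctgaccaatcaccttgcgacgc
Nop2: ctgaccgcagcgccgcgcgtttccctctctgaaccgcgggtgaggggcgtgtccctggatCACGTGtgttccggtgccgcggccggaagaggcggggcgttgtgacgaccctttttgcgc
Rrn3: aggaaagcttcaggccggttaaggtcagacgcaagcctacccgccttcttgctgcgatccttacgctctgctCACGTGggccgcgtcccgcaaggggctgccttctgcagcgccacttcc
The E-box starts 121 bases before the start of Imp4, 60 before that of Nop2 and 48 before that of Rrn3, whose promoter holds a further E-box upstream.

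The first question of the design is whether loss of huntingtin altered these transcripts in total RNA. No change was called: edgeR's quasi-likelihood test (Benjamini-Hochberg) passed 0 of 53 genes, the lowest adjusted p was 0.978, and 0 had an unadjusted p under 0.05. The background was also empty, with 0.0% of 14759 genes called (44 at an unadjusted p under 0.05). DESeq2 called 3 genes (0.0203%), Htt among them, and 0 members. The members' median log2 fold change was 0.06, with 36 of 53 above 0, against 0.01 over all genes tested. The median was -0.02 without total HTT-deleted replicate 1, and 18 of 53 were above 0 with pairs 2 and 3 alone. Of the 53 intervals (95%), 23 lay within 0.5 of 0 on the log2 scale, and the widest reached 1.05 to each side.

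The spread was widest in replicate pair 1. In that pair the members' log2 differences, HTT-deleted minus control, ran from -1.0 (Mybbp1a) to 1.28 (Nhp2), with an SD of 0.512, and 16 of 53 lay beyond 0.5. In pairs 2 and 3 the SDs were 0.102 and 0.122, and 0 members lay beyond 0.5. The medians of the 3 pairs were 0.14, -0.01 and -0.04. In pair 1 the differences fell with coding length (Spearman rho = -0.823 over 53 genes measured in 1 pair of libraries), and in pairs 2 and 3 rho was 0.095 and 0.347.

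**Figure D1:**
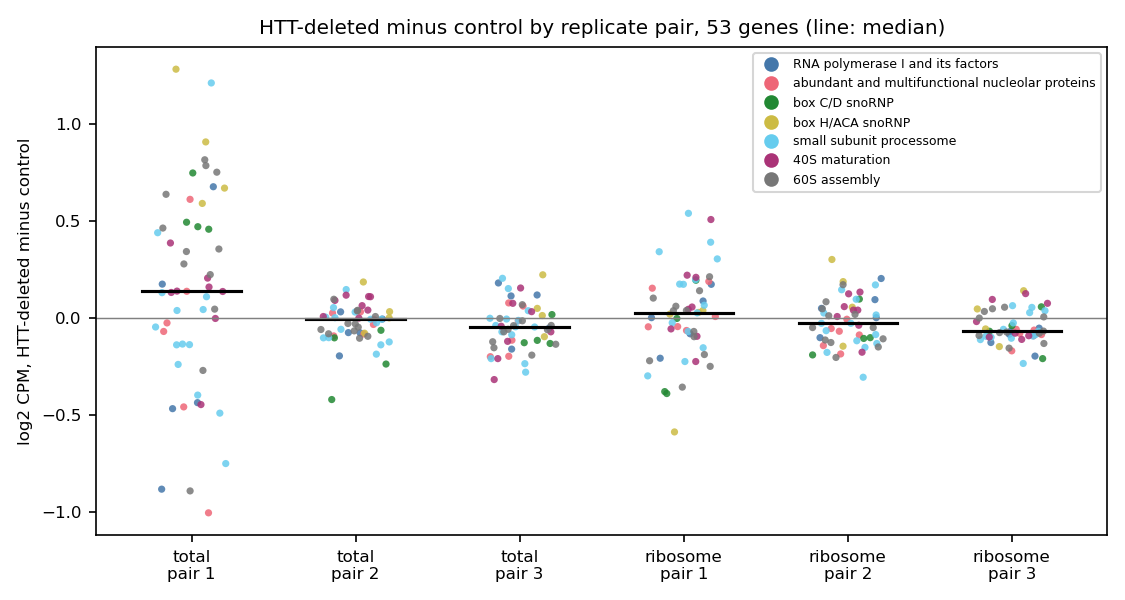
Log2 CPM difference between HTT-deleted and control cells for each of the 53 genes (points, coloured by role) in each replicate pair, for total and ribosome-associated RNA, with the median as a black line. Total RNA of pair 1 spans -1.0 to 1.28, and the other 2 total pairs stay within 0.5 of 0.

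By role, the box H/ACA genes had the highest median in pair 1, at 0.79, and 0.02 and 0.03 in pairs 2 and 3. The box C/D genes were at 0.48, -0.17 and -0.12 in pairs 1 to 3, the 60S factors at 0.35, -0.04 and -0.06, and the RNA polymerase I genes at -0.43, -0.07 and 0.12. Each of these 4 sets was closer to 0 in pairs 2 and 3 than in pair 1.

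Single genes show the same. Nhp2, a core box H/ACA protein, was at 69.3, 22.8 and 27.4 CPM in total RNA of HTT-deleted cells and at 28.4, 24.0 and 26.5 CPM in control cells. Only the first HTT-deleted value lies outside the control range by a wide margin, and the groups overlap. Its log2 fold change was 0.65 (SE 0.44, adjusted p = 0.978), and -0.06 without HTT-deleted replicate 1. Nop10, the smallest protein of the same complex, was at 44.1, 22.8 and 25.2 CPM in HTT-deleted and 23.4, 22.2 and 21.6 CPM in control cells. Its groups also overlap, and its log2 fold change of 0.49 (SE 0.29, adjusted p = 0.978) was 0.11 without that library. Imp3, which helps U3 snoRNA pair with its target in the processome, was at 87.3, 34.0 and 36.5 CPM in HTT-deleted and 37.6, 36.4 and 42.1 CPM in control cells. Its log2 fold change was 0.49 (SE 0.39), and -0.12 without HTT-deleted replicate 1. Mybbp1a, a Myb-binding nucleolar protein with a long transcript, went the other way in that library, at 82.0, 142 and 178 CPM in HTT-deleted and 164, 146 and 179 CPM in control cells, a log2 fold change of -0.26 (SE 0.26) that was -0.02 without that library. The groups overlap for both Imp3 and Mybbp1a.

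The other members named by role in total RNA had estimates of 0.32 or less in size, and none passed the test. Among RNA polymerase I genes, Polr1c (shared with RNA polymerase III) was at 0.19 (SE 0.24) and Rrn3 at -0.08 (SE 0.17) on the log2 scale. Npm1 was at 0.20 (SE 0.27). In the box C/D set, Fbl, the methyltransferase fibrillarin, was at 0.23 (SE 0.28) and the core protein Nop58 at 0.15 (SE 0.19). The processome protein Utp14a was at 0.16 (SE 0.13). Of the 40S factors, the endonuclease Nob1 was at 0.21 (SE 0.18) and Rrp12 at 0.16 (SE 0.15). Of the 60S factors, Grwd1 was at 0.32 (SE 0.24) and Pes1, of the PeBoW complex, at 0.21 (SE 0.16). Without total HTT-deleted replicate 1, Npm1 was at -0.14, Fbl at -0.15, Nop58 at -0.05, Polr1c at -0.11 and Rrn3 at 0.06. Grwd1 was then at 0.12, Pes1 at 0.07, Nob1 at 0.03, Rrp12 at 0.09 and Utp14a at 0.14. The groups did not overlap for 4 of 53 genes (Utp14a higher in HTT-deleted cells, and Wdr43, Mphosph10 and Nat10 lower), against 4.21% of all genes. Utp14a was at 30.8, 30.7 and 30.5 CPM in HTT-deleted and 29.9, 27.7 and 26.4 CPM in control cells. Nat10 was at 40.2, 39.6 and 40.3 CPM in HTT-deleted and 44.0, 43.5 and 41.6 CPM in control cells. These gaps are small beside the levels.

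With pairs 2 and 3 alone and the replicate number as a block, all 53 intervals lay within 0.5 of 0, the median was -0.04, and 0 members were called against 0.629% of genes. That fit has 4 libraries and leans on a spread shared across genes. There Nhp2 was at -0.0019, Nop10 at 0.14, Imp3 at -0.15 and Npm1 at -0.14.

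In ribosome-associated RNA the deletion also left the 53 genes without a call. edgeR's quasi-likelihood test (Benjamini-Hochberg) passed 0 of 53, with an adjusted p of 1.0 for each member and 0 at an unadjusted p under 0.05, and it called 0.0% of 14588 genes (110 at an unadjusted p under 0.05). With the replicate number as a block, 0 members and 1.69% of all genes were called, and DESeq2 called 0 members and 1 gene (0.00685%). The members' median was -0.01, with 24 of 53 above 0, against -0.0010 for all genes. These libraries were closer to each other than the total libraries: 46 of 53 intervals lay within 0.5 of 0, and with the block all 53 did, the widest reaching 0.26 to each side. The medians of the 3 pairs were 0.029, -0.025 and -0.066. Pair 1 was the widest here too: the members' SDs were 0.221, 0.124 and 0.083 in pairs 1, 2 and 3. In pair 1, 3 members lay beyond 0.5, with Gar1 lowest at -0.58 and Heatr1 highest at 0.54, and in pairs 2 and 3 there were 0. Spearman rho of the differences with coding length over the 53 genes was 0.535 in pair 1, and -0.180 and -0.059 in pairs 2 and 3.

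Here the members with the smallest p in each role had estimates mostly below 0, and small. Nop58 was at 115, 102 and 108 CPM in HTT-deleted and 115, 117 and 125 CPM in control cells, with overlapping groups and a log2 fold change of -0.13 (SE 0.08, adjusted p = 1.0). Gar1, another box H/ACA protein, was at 25.7, 28.0 and 32.0 CPM in HTT-deleted and 38.6, 26.9 and 35.4 CPM in control cells, a log2 fold change of -0.23 (SE 0.16). Rrn3 was at 53.96, 56.69 and 59.98 CPM in HTT-deleted and 62.2, 60.7 and 62.1 CPM in control cells, a log2 fold change of -0.11 (SE 0.08). Every control value of Rrn3 lay above every HTT-deleted value, by a small margin. Noc4l (-0.20, SE 0.13) and Imp3 (-0.17, SE 0.12) of the processome, Rrp9 (-0.13, SE 0.11) of the U3 snoRNP and Bysl (-0.11, SE 0.09) of 40S maturation also had estimates below 0. So did Bop1 (-0.11, SE 0.11) and Rrp1 (-0.09, SE 0.08) of 60S assembly, Ncl (-0.07, SE 0.10), Polr1c (-0.05, SE 0.08) and Gnl3, the GTP-binding protein nucleostemin (-0.08, SE 0.09). Nhp2 (0.12, SE 0.11) and Riok2, a kinase of late 40S maturation (0.11, SE 0.09), were above 0. None passed the test. The groups did not overlap for 4 of 53 genes (Riok2 higher, and Rrn3, Bysl and Rrp1 lower in HTT-deleted cells), against 5.44% of all genes.

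**Figure D2:**
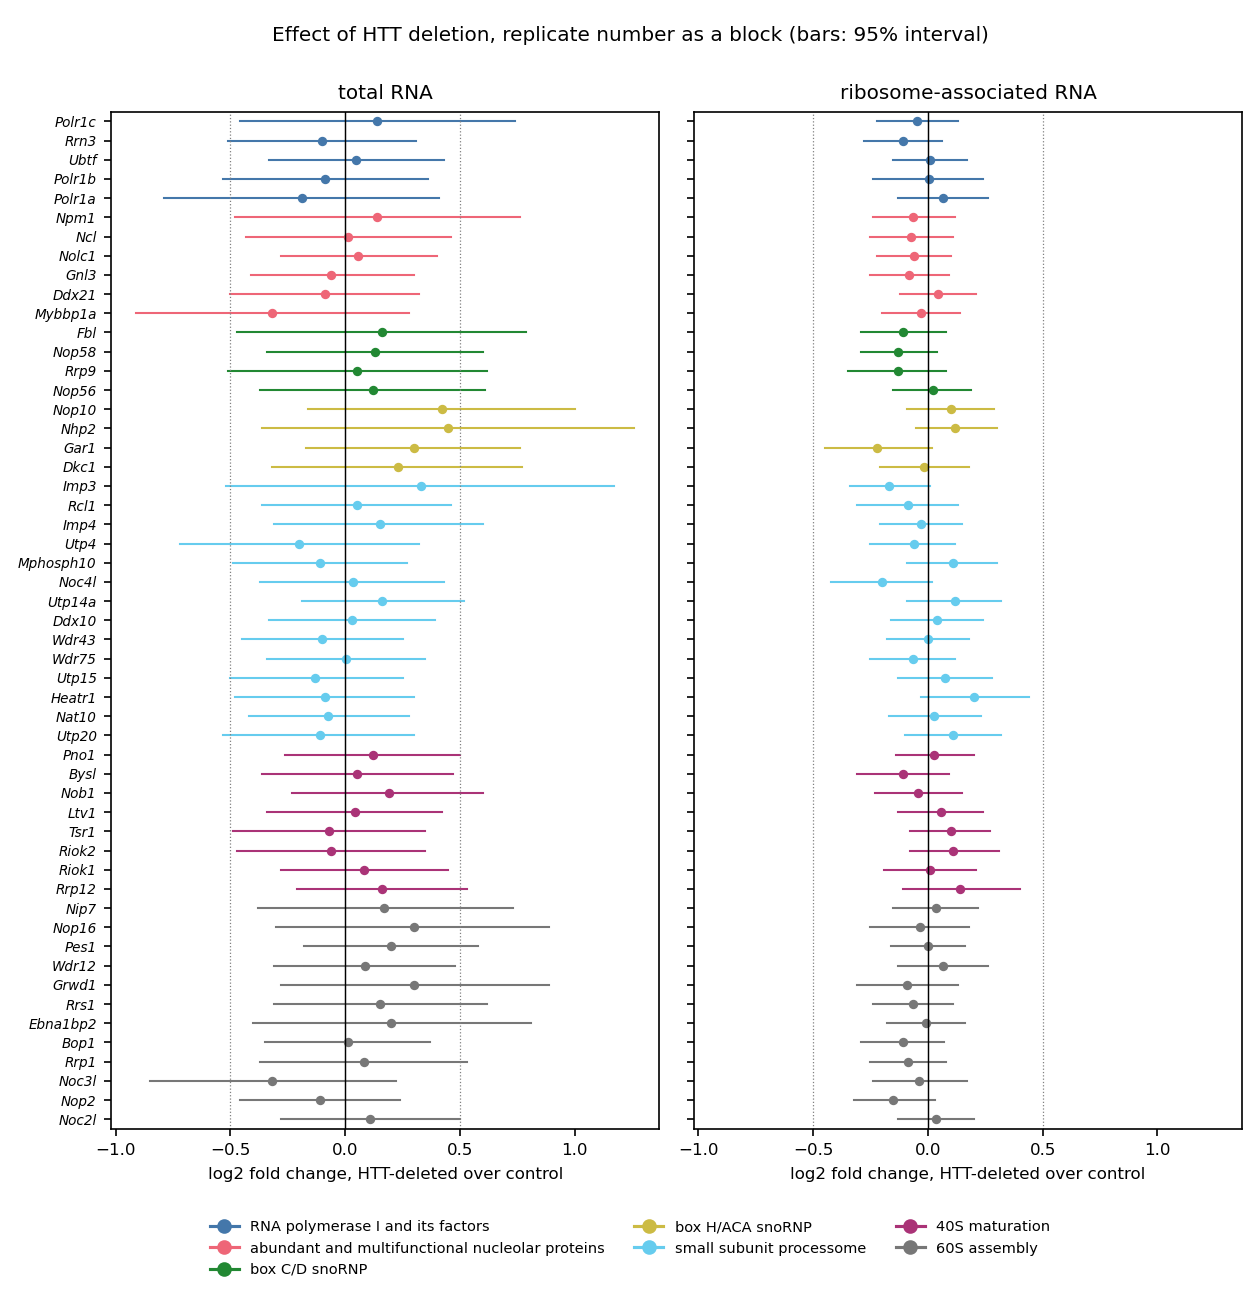
Log2 fold change, HTT-deleted over control, of each of the 53 genes with its 95% interval, in total RNA (left) and ribosome-associated RNA (right), fitted with replicate number as a block. In ribosome-associated RNA all 53 intervals stay within the dotted lines at 0.5, and in total RNA 23 do.

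Ribosome association was examined next, by setting ribosome-associated against total RNA within a condition. The main fits had no term for the culture that both fractions came from. Each library is scaled to its own total with TMM factors. A fold change above 0 on the log2 scale thus means a higher level in ribosome-associated RNA relative to the bulk of genes. In control cells 13 of 53 genes changed: 9 were higher and 4 lower in ribosome-associated RNA, by edgeR's quasi-likelihood test (Benjamini-Hochberg). That share is near the background, since 25.0% of the 14990 genes tested were called (10.0% higher and 15.0% lower). With the replicate number as a block, 17 members were higher and 11 lower, against 50.2% of all genes called (24.3% higher and 25.9% lower). With pairs 2 and 3 alone and the block, 17 members were higher and 10 lower, against 49.2% of all genes (24.1% higher and 25.0% lower). The members' median was 0.07, with 30 of 53 above 0, and the median of all genes was 0.02. The groups did not overlap for 25 of 53 genes, against 44.1% of all genes.

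A pair of box H/ACA genes stood highest. Nop10 (chromosome 2, 112261926 to 112263269, plus strand, GRCm38) was at 42.4, 35.3 and 42.5 CPM in ribosome-associated and 23.4, 22.2 and 21.6 CPM in total RNA of control cells. The groups are far apart, and the log2 fold change was 0.83 (SE 0.11, adjusted p = 0.0041). Nhp2 (chromosome 11, 51619735 to 51623714, plus strand) was at 52.98, 41.52 and 45.01 CPM in ribosome-associated and 28.4, 24.0 and 26.5 CPM in total RNA, with no overlap and a log2 fold change of 0.81 (SE 0.12, adjusted p = 0.0060). Their partners Gar1 (0.31, SE 0.17) and Dkc1, the pseudouridine synthase (0.24, SE 0.12), did not pass the test, and were called higher with the block. Npm1 was at 1100, 976 and 1005 CPM in ribosome-associated and 691, 642 and 728 CPM in total RNA, again without overlap, at 0.57 (SE 0.10, adjusted p = 0.0085).

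The other genes that were higher came from several steps of the pathway, and for each of them the fractions did not overlap. Polr1c was at 54.3, 50.05 and 53.97 CPM in ribosome-associated and 34.7, 36.6 and 40.7 CPM in total RNA of control cells, at 0.49 (SE 0.09, adjusted p = 0.0097). Nop58 was at 115, 117 and 125 CPM in ribosome-associated and 85.6, 83.7 and 97.6 CPM in total RNA, at 0.41 (SE 0.08, adjusted p = 0.015). Imp3 was at 63.4, 48.9 and 54.5 CPM in ribosome-associated and 37.6, 36.4 and 42.1 CPM in total RNA, at 0.52 (SE 0.12, adjusted p = 0.022). Its highest ratio was that of culture 1. Pno1, the RNA-binding partner of Nob1 in 40S maturation, was at 57.7, 48.8 and 45.5 CPM in ribosome-associated and 38.1, 33.9 and 33.4 CPM in total RNA, at 0.52 (SE 0.12, adjusted p = 0.021). From 60S assembly came Nip7, at 43.3, 35.9 and 45.3 CPM in ribosome-associated and 31.2, 28.5 and 33.0 CPM in total RNA, with 0.42 (SE 0.12, adjusted p = 0.040). Pes1 was at 102, 97.8 and 99.2 CPM in ribosome-associated and 81.6, 72.8 and 82.4 CPM in total RNA, at 0.33 (SE 0.08, adjusted p = 0.024). The margin between fractions was narrow for Nip7 and wider for Pes1.

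The genes that were lower have long coding sequences, of 3072 bases or more. Nat10, the acetyltransferase of 18S rRNA (chromosome 2, 103721256 to 103761270, minus strand), was at 27.7, 25.9 and 27.9 CPM in ribosome-associated and 44.0, 43.5 and 41.6 CPM in total RNA of control cells. The groups do not overlap, and the log2 fold change was -0.67 (SE 0.08, adjusted p = 0.0035). Utp20, a long scaffold of the processome, was at 30.8, 39.1 and 46.2 CPM in ribosome-associated and 63.0, 56.1 and 69.7 CPM in total RNA, at -0.71 (SE 0.15, adjusted p = 0.018). Heatr1 was at 20.8, 23.6 and 29.7 CPM in ribosome-associated and 39.6, 34.4 and 38.3 CPM in total RNA, at -0.60 (SE 0.14, adjusted p = 0.024). Rrp12 was at 12.3, 14.3 and 17.0 CPM in ribosome-associated and 21.7, 19.8 and 19.5 CPM in total RNA, at -0.49 (SE 0.14, adjusted p = 0.042). None of these 3 overlapped between fractions, and culture 1 had the lowest ratio of each.

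The other 40 genes did not pass the test. Those nearest to it were Fbl (0.41, SE 0.13, adjusted p = 0.063), Polr1a (-0.55, SE 0.18, adjusted p = 0.067), Noc2l (-0.22, SE 0.08, adjusted p = 0.081) and Ncl (0.23, SE 0.08, adjusted p = 0.085). DESeq2 called Fbl, Polr1a and Ncl as well, for a total of 11 higher and 5 lower, against 28.8% of all genes (12.7% higher and 16.1% lower). Mybbp1a was at -0.38 (SE 0.15) and Polr1b at -0.34 (SE 0.15). Nearest to 0 were Ltv1 (-0.0031, SE 0.10), which escorts the 40S precursor, the C/D core protein Nop56 (-0.0055, SE 0.09) and Rrp1 (-0.0072, SE 0.08).

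**Figure D3:**
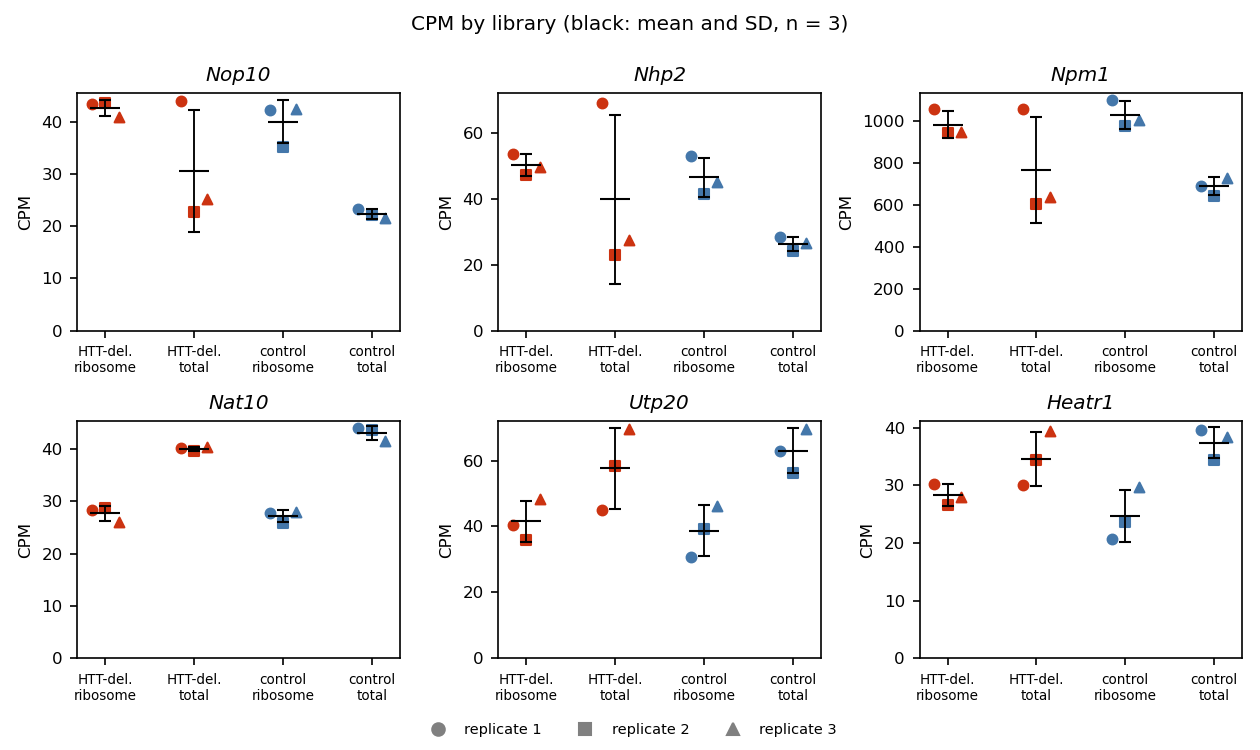
CPM by library of 6 genes in the 4 groups (points by replicate, with mean and SD in black, n = 3, linear axes from 0). Nop10, Nhp2 and Npm1 are higher and Nat10, Utp20 and Heatr1 lower in ribosome-associated RNA of control cells, and total RNA of HTT-deleted replicate 1 lies near the ribosome-associated level for Nop10, Nhp2 and Npm1.

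Nat10, Nhp2, Nop10 and Npm1 were called with each library left out in turn, and the other 9 were not. Polr1c lost its call without total control replicate 1, Imp3 and Nop58 without total control replicate 1 or 2, and Pno1 without total control replicate 2 or 3. Nip7 and Pes1 lost theirs without ribosome-associated control replicate 1 or 3 or any 1 of the total control libraries, and Rrp12 without ribosome-associated control replicate 1 or 2 or any 1 of the total control libraries. Utp20 was lost without ribosome-associated control replicate 2 or total control replicate 1 or 3, and Heatr1 without ribosome-associated control replicate 1 or 2 or total control replicate 1 or 3. The count of higher genes was 4 without total control replicate 1 or 2, where the count over all genes also fell, to 385 of 15205 and 657 of 15464. The count of lower genes was 1 without total control replicate 1 or 3 or ribosome-associated control replicate 2, 2 without ribosome-associated control replicate 1, and 7 without ribosome-associated control replicate 3. Over all genes, 1122 were lower without total control replicate 1, 1494 without total control replicate 3, and 1693, 1894 and 2062 without ribosome-associated control replicates 1, 2 and 3, of 15205 to 15628 tested, against 2246 with all libraries. All 13 were called by DESeq2 and with the block.

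The ratios followed coding length closely. Over the 53 genes of control cells the Spearman correlation between the log2 fold change and coding length was -0.864, and over 13267 genes it was -0.644; all genes share the same 6 libraries. Nop10 has 192 coding bases and Nhp2 459, while Nat10 has 3072, Heatr1 6429 and Utp20 8367. A correction for coding length, fitted per library together with the block, moved the long genes: Utp20 was then at 0.09, Heatr1 at 0.08 and Rrp12 at -0.03, and none of these was called. Of the 13 calls 9 held, with Nat10 at -0.32 (SE 0.07, adjusted p = 0.00037), Nhp2 at 0.44 (SE 0.07, adjusted p = 4.0e-06), Npm1 at 0.38 (SE 0.05, adjusted p = 1.3e-06) and Nop10 at 0.28 (SE 0.08, adjusted p = 0.0085) in edgeR's quasi-likelihood test. In that fit 21 members were higher and 3 lower (Nat10, Utp15 and Gnl3), against 41.6% of all genes called, 21.7% higher and 19.9% lower. Pes1 (0.42, SE 0.05) and Ncl (0.41, SE 0.05) had the smallest p in it, and the members' median was 0.11.

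**Figure D4:**
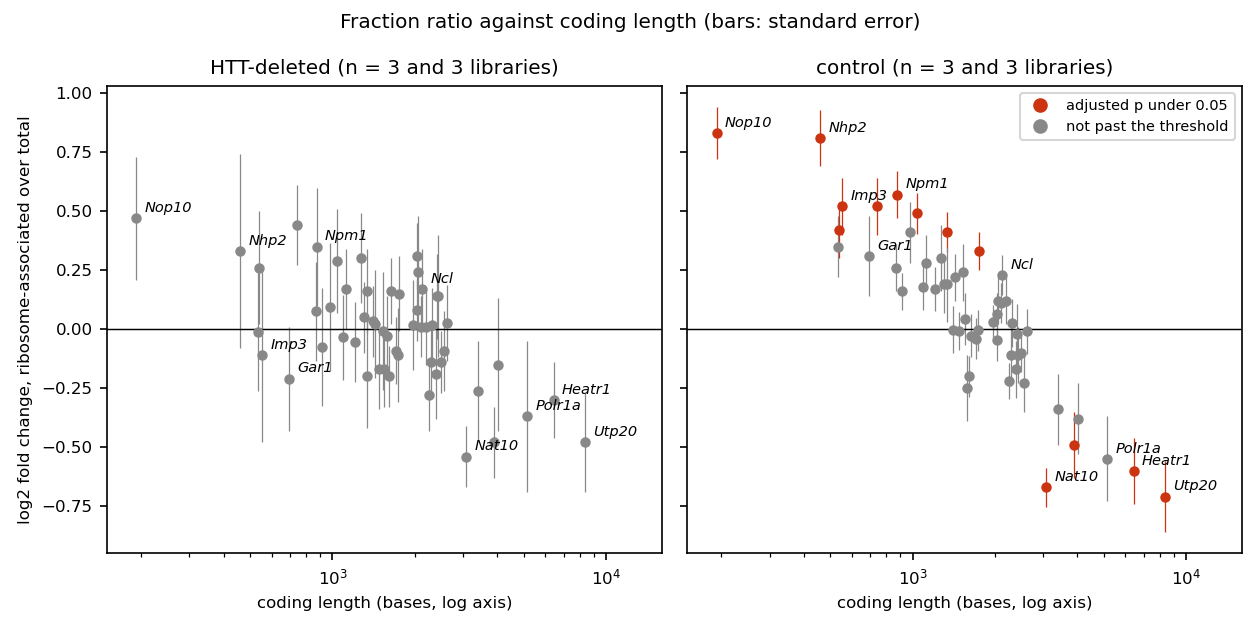
Log2 fold change of ribosome-associated over total RNA (with standard error) against coding length on a log axis, for the 53 genes in HTT-deleted (left) and control cells (right), red where the adjusted p was under 0.05. In control cells the values fall from 0.83 for Nop10 to -0.71 for Utp20, and in HTT-deleted cells no gene is red.

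In HTT-deleted cells the same comparison called 0 of 53 genes, a count that changed without total HTT-deleted replicate 1. edgeR's quasi-likelihood test (Benjamini-Hochberg) gave a lowest adjusted p of 0.134, for Nat10 (log2 fold change -0.54, SE 0.13), and called 0.896% of 14627 genes. An unadjusted p under 0.05 was found for 3 members, Nat10, Rrp12 (-0.48, SE 0.15) and Pno1 (0.44, SE 0.17). DESeq2 called Nat10 and no other member, against 5.92% of all genes. Nat10 was at 28.2, 28.7 and 26.0 CPM in ribosome-associated and 40.2, 39.6 and 40.3 CPM in total RNA of HTT-deleted cells, so its groups do not overlap in either condition. Without total HTT-deleted replicate 1, 7 members were higher and 2 lower, among 1203 higher and 1805 lower of 15141 genes. The groups did not overlap for 7 of 53 genes, against 20.5% of all genes.

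By role, the estimates over all 3 HTT-deleted cultures were Polr1c 0.29 (SE 0.22) and Polr1b -0.26 (SE 0.21), Npm1 0.35 (SE 0.25) and Gnl3 -0.20 (SE 0.13). In the box C/D set Nop58 was at 0.16 (SE 0.18) and Nop56 at -0.11 (SE 0.20). Nop10 was at 0.47 (SE 0.26) and Gar1 at -0.21 (SE 0.22). Utp20 was at -0.48 (SE 0.21), Wdr12 of the PeBoW complex at 0.30 (SE 0.19) and Noc2l, the counterpart of a yeast 60S factor, at -0.28 (SE 0.15). None of these passed the test. Without total HTT-deleted replicate 1, Polr1c was at 0.57, Polr1b at -0.41, Npm1 at 0.66 and Gnl3 at -0.16. Nop58 was then at 0.34, Nop56 at 0.12, Nop10 at 0.83 and Gar1 at 0.02. Utp20 was at -0.63, Wdr12 at 0.38 and Noc2l at -0.15.

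The cultures differed. The median log2 ratio of the 4 box H/ACA genes was -0.40, 0.53 and 0.55 in HTT-deleted cultures 1, 2 and 3, and 0.65, 0.47 and 0.51 in control cultures. For the 4 box C/D genes the medians were -0.44, 0.40 and 0.23 in HTT-deleted and 0.40, 0.18 and 0.26 in control cultures. In both sets HTT-deleted culture 1 alone was below 0. Across the 53 genes the Spearman correlation of the ratio with coding length was 0.383 in HTT-deleted culture 1, -0.850 and -0.809 in HTT-deleted cultures 2 and 3, and between -0.896 and -0.760 in the control cultures.

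**Figure D5:**
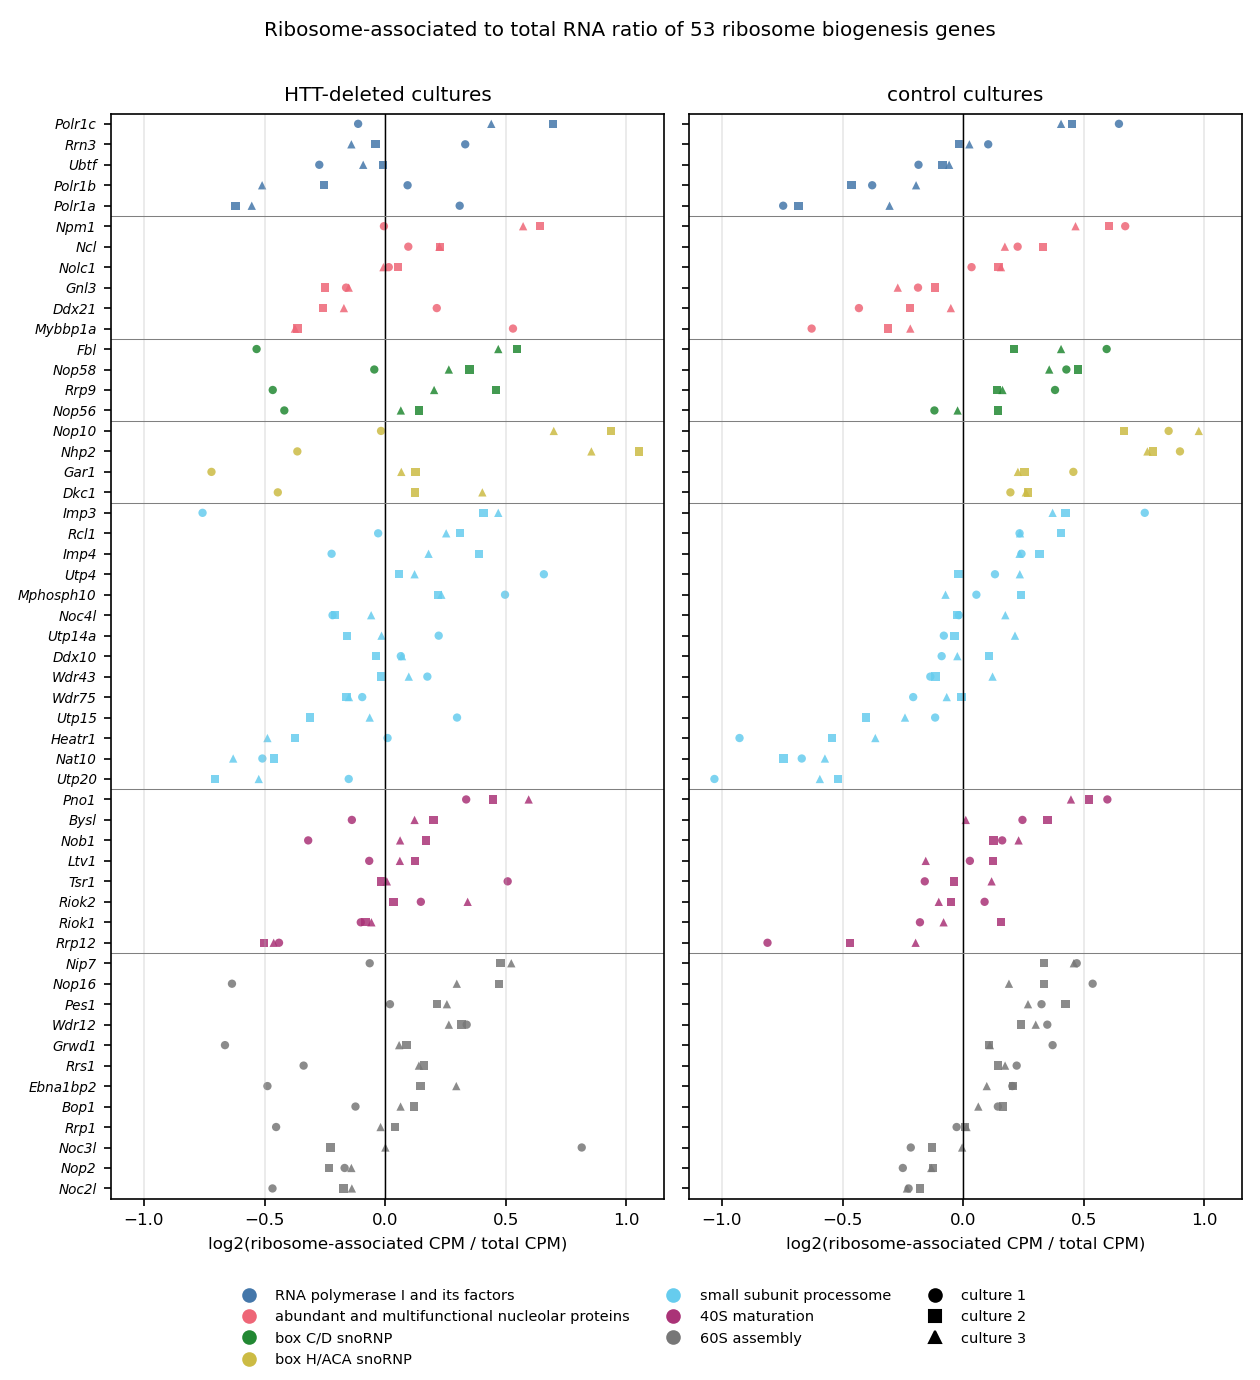
Log2 ratio of ribosome-associated to total CPM for each of the 53 genes, by culture (circle, square and triangle for cultures 1, 2 and 3) and ordered by role, in HTT-deleted (left) and control cells (right). In HTT-deleted cells the circles of culture 1 lie away from the other 2 cultures for most genes, such as Nhp2, Imp3, Noc3l and Mybbp1a.

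With HTT-deleted pairs 2 and 3 alone and the replicate number as a block, 19 members were higher and 12 lower in ribosome-associated RNA, against 55.6% of genes called (27.7% higher and 27.9% lower). Among them were all 13 genes called in control cells. Nhp2 was at 0.95 (SE 0.07), Nop10 at 0.81 (SE 0.08), Npm1 at 0.60 (SE 0.05), Utp20 at -0.61 (SE 0.06) and Nat10 at -0.55 (SE 0.08). The blocked fits of HTT-deleted pairs 2 and 3 and of control cells share no library. They had 26 called members in common, all with the same direction, out of 31 and 28. These fits called 55.6% and 50.2% of all genes. The overlap and shared direction over all genes were not counted, so these numbers are not set apart from the background.

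Whether the deletion changed the ratio itself was tested as an interaction over all 12 libraries. That fit had no term for the culture that both fractions came from. edgeR's quasi-likelihood test (Benjamini-Hochberg) passed 0 of 53 genes, each with an adjusted p of 1.0, and 0.0% of 15574 genes (85 at an unadjusted p under 0.05). DESeq2 also called 0 genes. The members' median was -0.06, with 19 of 53 above 0, against 0.01 over all genes, and it was 0.03 without total HTT-deleted replicate 1. The smallest p was that of Gar1 (log2 difference of ratios -0.52, SE 0.29, 95% interval -1.15 to 0.11). Next by role came Mphosph10, a partner of Imp3 and Imp4 (0.25, SE 0.15), and Imp3 itself (-0.62, SE 0.42). Without total HTT-deleted replicate 1, Gar1 was at -0.29, Mphosph10 at 0.24 and Imp3 at -0.03. The intervals were wide: 14 of 53 lay within 0.5 of 0, and 52 of 53 did with pairs 2 and 3 and the block.

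None of the other members named in the interaction passed the test. Below 0 were Grwd1 (-0.38, SE 0.28), Nop10 (-0.36, SE 0.30), Nop16 (-0.36, SE 0.30), Fbl (-0.31, SE 0.32) and Nop58 (-0.25, SE 0.20). Nob1 (-0.22, SE 0.18), Npm1 (-0.22, SE 0.28) and Polr1c (-0.20, SE 0.25) were also below 0. Riok2 (0.20, SE 0.15), Polr1a, the largest RNA polymerase I subunit (0.19, SE 0.39), and the RNA helicase Ddx21 (0.15, SE 0.20) were above 0. Without total HTT-deleted replicate 1, Nop10 was at 0.0061, Fbl at 0.04, Npm1 at 0.09, Polr1c at 0.09 and Polr1a at -0.08. Nop16 was then at -0.04, Nob1 at -0.05, Nop58 at -0.06, Ddx21 at 0.04, Grwd1 at -0.19 and Riok2 at 0.21.

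The wider pathway was set beside these. Of 97 other ribosome biogenesis genes, all tested, 0 were called for HTT deletion in total RNA (median 0.08), in ribosome-associated RNA (median -0.0030) or in the interaction (median -0.03). In total RNA the smallest p belonged to Nol12 (0.38, SE 0.24), Emg1 (0.53, SE 0.35), Rsl24d1 (0.56, SE 0.38) and Ddx49 (0.24, SE 0.17). In ribosome-associated RNA they were Nop14 (-0.16, SE 0.08), Lsg1 (-0.18, SE 0.10), Eif6 (-0.16, SE 0.09) and Ruvbl2 (-0.16, SE 0.10). In the interaction they were Aatf (-0.34, SE 0.20), Utp3 (-0.29, SE 0.18), Pelp1 (-0.38, SE 0.25) and Ddx52 (0.29, SE 0.19), and none of these 12 passed the test.

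For ribosome association in control cells, 18 of the 97 were higher and 11 lower, against 25.0% of all genes called (10.0% higher and 15.0% lower). With the block 34 were higher and 17 lower, against 50.2% of all genes. Nsa2, a 60S factor, was higher (0.71, SE 0.07, adjusted p = 0.0018 in edgeR's quasi-likelihood test). The giant 60S remodelling ATPase Mdn1 was lower (-1.51, SE 0.17, adjusted p = 0.0026), as were the helicase Ddx55 (-0.81, SE 0.13, adjusted p = 0.0067) and Urb1 (-0.95, SE 0.15, adjusted p = 0.0068). In HTT-deleted cells 0 of the 97 were called, against 0.896% of all genes. With pairs 2 and 3 and the block 42 were higher and 22 lower, against 55.6% of all genes. In the main fit of HTT-deleted cells, without the block, the smallest p were those of Ddx55 (-1.09, SE 0.24), Urb1 (-0.82, SE 0.20), Taf1a (-0.67, SE 0.19) and Bms1 (-0.44, SE 0.14). None of these was called.

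No regulator that was tested passed the test for HTT deletion. Myc was at 30.9, 24.7 and 36.4 CPM in total RNA of HTT-deleted cells and 33.9, 30.3 and 38.1 CPM in control cells, with overlapping groups. In ribosome-associated RNA it was at 27.3, 26.3 and 33.5 CPM in HTT-deleted and 30.3, 34.3 and 40.8 CPM in control cells, a log2 fold change of -0.27 (unadjusted p = 0.106 in edgeR's quasi-likelihood test, adjusted p = 1.0). Its partner Max was at 96.8 ± 14.6 CPM in total RNA of HTT-deleted and 89.9 ± 4.30 CPM in control cells. Tcof1, the treacle protein that supports RNA polymerase I, was at 63.4 ± 4.14 CPM in HTT-deleted and 62.1 ± 6.80 CPM in control cells (SD, n = 3 each). Mycn was barely counted, at 0.235 ± 0.0267 CPM in total RNA of HTT-deleted and 0.342 ± 0.151 CPM in control cells.

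Co-variation among the members was described within groups. Over 1378 pairs of members, the median Pearson correlation of log2 CPM deviations from the group means was 0.321 over 12 libraries and 0.499 without total HTT-deleted replicate 1. These points share libraries and their depth. The pairs most alike were Pes1 and Ncl (0.985), Mybbp1a and Polr1a (0.984), and Imp3 and Npm1 (0.983), at 0.970, 0.959 and 0.849 without that library. The least alike were Rrn3 with Npm1 (-0.879), with Ebna1bp2 (-0.860) and with Nhp2 (-0.860), and these were at -0.090, 0.134 and 0.171 without it.

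In the authors' deposited table, labelled as made with 2 factors of unwanted variation, 2 of 53 members passed a false discovery rate of 0.05 in total RNA, both higher in HTT-deleted cells, against 4.97% of 16974 genes. The authors' deposited table gives Nhp2 a log2 fold change of 0.46 (false discovery rate 0.0265) and Nop10 0.43 (0.0457). In the fit made here without total HTT-deleted replicate 1, Nhp2 was at -0.06 and Nop10 at 0.11. In ribosome-associated RNA the authors' deposited table calls 0 members, against 4.21% of 16235 genes.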

How the data were processed

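Members and gene lists were chosen with earlier results of these data known. Per the labels' protocols, stranded libraries were made from 250 ng RNA, all with an RNA quality number above 9. FastQC, STAR 2.7.2b, HTSeq 0.11.1, edgeR and GRCm38 (mm10) are named in the submitters' processing notes. Annotation release and strand setting for counting were not given in the sources used here, and 22 members overlap an opposite-strand gene, so their counts are uncertain. The authors deposited raw counts per gene. The 5 entries per library that name no gene were left out, and reads in no feature were 6.94 to 7.73% of total and 2.64 to 3.30% of ribosome-associated libraries. A separate table the authors deposited holds log2 fold changes, log2 CPM, a likelihood ratio score, p-values and false discovery rates.

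Counts were scaled by TMM, filtered with filterByExpr and tested over all genes with edgeR 4.0.16 (quasi-likelihood, robust) in R 4.3.3, with Benjamini-Hochberg adjustment and a threshold of 0.05. The main fits held no term for replicate number or culture, so their SEs, intervals and p-values do not use the pairing described below. Log2 CPM used a prior count of 2. Figures used Matplotlib 3.10.9. Alternatives were RLE scaling, no filter, at least 5 CPM in 3 libraries, DESeq2 1.42.0, the replicate number as a block (the 6 cultures in the interaction), the block with a lowess correction (span 0.4) for coding length in place of transcript length, each library left out, and pairs 2 and 3. The tests were checked on simulated counts, drawn independently for each library with the same dispersion for all genes. That check held no deviant library, no trend with coding length and no pairing.

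Replicate numbers were taken to pair the samples, since same-numbered libraries deviated together from their group means: 0.227 to 0.576 (HTT-deleted with control, total), 0.525 to 0.703 (the same, ribosome-associated), 0.347 to 0.579 (fractions, HTT-deleted) and 0.501 to 0.737 (fractions, control), correlations across 15574 genes. Named members were the 2 with the smallest p in each role for HTT deletion, and for the fractions up to 4 called members in each role, or the 2 with the smallest p where none was called. Of the other pathway genes the 4 with the smallest p were named.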

Additional observations from a re-analysis of the deposited data

How the results depend on the processing

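RLE scaling, testing unfiltered genes, requiring 5 CPM in 3 libraries and DESeq2 kept the direction of every named member, and changed no count by over 1.5 times except that DESeq2 called 1 member lower in HTT-deleted fractions. With the replicate block, the counts for control fractions were 17 higher and 11 lower; it changed no other call among the members. It also called 10 of 18 macrophage markers for HTT deletion in ribosome-associated RNA, against 1.69% of all genes. In control fractions it called 14 of 18 macrophage markers, Tcof1 (-0.24), Max (0.20) and 34 higher and 17 lower of the 97 other biogenesis genes. There 50.2% of all genes were called. With the block and the length correction, the count was 21 higher and the median 0.11, and Utp20 (0.0874) and Heatr1 (0.0759) reversed, as did Nop10 in the interaction (0.0503). Pairs 2 and 3 with the block gave control fractions 17 higher and 10 lower with a median of 0.095, and HTT-deleted fractions 19 higher and 12 lower, with Gar1 (0.0909) and Nop56 (0.10) reversed. The same setting moved the median for HTT deletion in total RNA to -0.041 and reversed Nhp2 (-0.00193), Imp3 (-0.15), Npm1 (-0.14), Fbl (-0.17), Nop58 (-0.081), Polr1c (-0.17) and Rrn3 (0.0307). In the interaction it reversed Imp3 (0.037), Nop16 (0.12), Fbl (0.19), Npm1 (0.0672), Ddx21 (-0.0889), Polr1c (0.13) and Polr1a (-0.12).

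With each library left out, counts for control fractions ran from 4 to 10 higher and from 1 to 7 lower, with medians of 0.0518 to 0.11. HTT-deleted fractions ran from 0 to 7 higher and 0 to 2 lower. Medians ran from -0.0218 to 0.13 for HTT deletion in total RNA, from -0.0874 to 0.053 for HTT-deleted fractions, from -0.069 to 0.0133 for HTT deletion in ribosome-associated RNA and from -0.13 to 0.0347 in the interaction. In total RNA the ranges were -0.0564 to 0.93 for Nhp2, -0.12 to 0.73 for Imp3, -0.14 to 0.35 for Npm1, -0.15 to 0.44 for Fbl, -0.0512 to 0.27 for Nop58, -0.11 to 0.35 for Polr1c and -0.21 to 0.0608 for Rrn3. In the interaction they were -0.53 to 0.00609 for Nop10, -0.51 to 0.0441 for Fbl, -0.37 to 0.0939 for Npm1, -0.35 to 0.0851 for Polr1c and -0.0797 to 0.47 for Polr1a. In HTT-deleted fractions they were -0.36 to 0.0194 for Gar1 and -0.24 to 0.12 for Nop56. In these ranges by gene the reversed end came without total HTT-deleted replicate 1; the cause was not tested. The 3 against 3 design cannot go below 0.1 in an exact permutation test of a single gene, depth does not limit these genes, and the fits on pairs 2 and 3 have few residual degrees of freedom, so their counts of calls are less firm.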

Other observations

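Of the 53 genes, 7 hold annotated snoRNAs within their bounds, namely Ncl, Gnl3, Nop56, Nop58, Dkc1, Wdr43 and Tsr1. Whether reads of those snoRNAs entered the gene counts was not tested.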
